A study of Mus musculus with 22 samples.

Results

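The clustered histone genes are the protein-coding genes that make the bulk histones of dividing cells, and they were followed here in the open chromatin of mouse fat cells during obesity and after weight loss. Members were taken by name alone, as every protein-coding gene of the mouse annotation GENCODE vM21 (build GRCm38) whose symbol begins with Hist1h, Hist2h, Hist3h or Hist4h, which gave 67 of 21938 genes. Of these, 54 lie on chromosome 13 (the Hist1 cluster), 10 on chromosome 3 (Hist2), 2 on chromosome 11 (Hist3) and 1 on chromosome 6 (Hist4). By protein, 6 encode the linker histone H1 and 18, 18, 12 and 13 encode the core histones H2A, H2B, H3 and H4.

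Histone proteins are needed in quantity when DNA is copied, and cells therefore read the clustered genes mainly in S phase, at a nuclear structure called the histone locus body that is organised by the activator NPAT. Their messages end in a stem-loop in place of a poly(A) tail, which ties them to replication, and a separate set of single-copy histone genes with poly(A) tails (H3.3, H2A.Z, H1.0 and others) supplies cells that no longer divide. Mature adipocytes are post-mitotic, so in a healthy fat cell the clustered genes are not thought to be in heavy use.

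All mice carried an adipocyte-directed, tamoxifen-inducible Cre (AdipoERCre) and the NuTRAP reporter, and tamoxifen was given at 4 to 5 weeks of age in every group, controls included. Cre drove the reporter in adipocytes, so biotin-labelled adipocyte nuclei could be drawn from frozen epididymal fat with streptavidin beads before transposase treatment and sequencing (ATAC-seq). H mice (n = 3) had 12 weeks of high-fat diet (HFD) and were compared with lean C mice (n = 3), both aged 18 weeks. HC mice (n = 3) had the same 12 weeks of HFD followed by 8 weeks of chow and were compared with CC_s mice (n = 3), both aged 26 weeks. HH mice (n = 3) had 25 weeks of HFD and were compared with CC_l mice (n = 2), both aged 31 weeks. HHC mice (n = 3) had 25 weeks of HFD followed by 8 weeks of chow and were compared with CCC mice (n = 2), both aged 39 weeks. Lean mice had a low-fat chow in place of HFD. During the weight-loss period HC and HHC mice and their controls, CC_s and CCC, all had standard chow. The 4 pairs share no libraries. The questions were whether chromatin at the histone genes differed in obesity and whether a difference was still there after weight loss.

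Each library was a list of peaks with 2 values for each peak, the total signal (coverage added up over the peak) and the maximum signal (the highest coverage in it). The 22 lists held 1091168 peaks, 40528 to 60523 in a library, and covered 128 to 299 Mb. Read totals were not part of the lists, so the depth of a library is unknown and no counting interval can be given. The median peak maximum ranged from 17 to 107 between libraries, was lowest in HC 3 (17), HHC 3 (18) and HH 1 (30), and was lower in all 3 H libraries than in the 3 C libraries (mean 54 against 85, exact permutation test, 2-sided, p = 0.1). Markers of adipocytes had peaks in every library for 8 of 8 genes, with Adipoq 11.5 times the library median in height. Among markers of other cells, 2 to 6 of 8 macrophage genes, 1 to 7 of 8 endothelial and stromal genes and 0 to 2 of 8 lymphocyte genes had a peak, Ptprc and Pecam1 had one in 1 library each, and Cd3e, Cd4 and Cd8a had none.

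The sequences that matter most for reading the results are the short stretches between head-to-head H2A and H2B genes, because a single peak over such a stretch belongs to both genes and cannot be assigned to either one. The 67 members form 12 such pairs, with 175 to 305 bases between the 5′ ends (median 258.5). The 3 pairs shown here are given as the plus strand of GRCm38, from the base after the first gene's 5′ end to the base before the other's, with capitals marking CCAAT or its reverse complement ATTGG. Hist1h2ag and Hist1h2bj (chr13:22042945-22043213) hold the member peak that differed most after 12 weeks of high-fat diet, and the other 2 pairs, Hist1h2bq with Hist1h2ao (chr13:21810198-21810464) and Hist1h2ap with Hist1h2br (chr13:21833508-21833742), belong to a duplicated block.
Hist1h2ag–Hist1h2bj: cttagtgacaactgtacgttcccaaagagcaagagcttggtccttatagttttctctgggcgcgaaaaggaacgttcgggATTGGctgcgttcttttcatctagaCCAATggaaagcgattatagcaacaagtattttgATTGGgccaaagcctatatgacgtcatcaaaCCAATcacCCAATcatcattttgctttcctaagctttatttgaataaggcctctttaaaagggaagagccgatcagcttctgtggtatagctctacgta
Hist1h2bq–Hist1h2ao: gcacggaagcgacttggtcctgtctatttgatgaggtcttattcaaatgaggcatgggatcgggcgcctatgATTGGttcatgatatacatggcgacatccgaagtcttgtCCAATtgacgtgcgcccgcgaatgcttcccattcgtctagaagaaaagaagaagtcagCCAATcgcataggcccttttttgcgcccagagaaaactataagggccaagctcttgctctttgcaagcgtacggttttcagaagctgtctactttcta
Hist1h2ap–Hist1h2br: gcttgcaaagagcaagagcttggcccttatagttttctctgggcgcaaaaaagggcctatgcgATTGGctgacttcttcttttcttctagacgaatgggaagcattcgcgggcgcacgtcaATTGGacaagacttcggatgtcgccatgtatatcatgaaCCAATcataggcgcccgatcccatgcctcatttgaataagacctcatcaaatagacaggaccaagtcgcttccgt
Between the pairs of the duplicated block, 235 of 267 aligned columns held identical bases (88%, with the pairs read in opposite directions on the chromosome). The shorter stretch has 235 bases, so each of them was matched and the other columns were gaps. Between each of these pairs and the Hist1h2ag–Hist1h2bj stretch, 64.5% and 63.7% of columns were identical. CCAAT, the site bound by NF-Y, stood in 12 of the 12 stretches, the TATA letters TATAAA in 7 and the octamer ATTTGCAT, a binding site of OCT1, in 5, with each motif searched on both strands.

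The same motifs were searched in the RefSeq promoter table of GRCm38.p6 (250 bases before to 50 after the start), in which 61 of the 67 members were found by symbol. TATAAA was present in 35 of 61 histone promoters (57.4%) against 14.8% of 17491 protein-coding promoters, CCAAT in 52 (85.2%) against 42.3% and ATTTGCAT in 14 (23%) against 1.9%. The classes were not alike in these letters. CCAAT was found in each of the 49 H1, H2A, H2B and H3 promoters but in 3 of 12 H4 promoters (25%), and ATTTGCAT was found in 7 of 17 H2A and 7 of 16 H2B promoters and in no H1, H3 or H4 promoter. Head-to-head H2A and H2B genes stand 175 to 305 bases apart, so the promoters of such partners overlap. A motif between them can be counted for both genes, and these counts are not of separate sites.

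The mark of a replication-dependent histone message, the 3′ stem-loop, was present in 63 of 67 members within 200 bases after the stop codon, at a median of 31 bases (22 to 59). It is shown as the gene strand with the stem in capitals. The search fixed the letters GG, CTTTT, AG and CC at their places, so forms could differ only at the other letters. A stem-loop with a change at a fixed letter counts as not found. The first form was found in 41 genes (Hist1h2ag and Hist1h2bj among them), the next in 9 (Hist1h1t among them) and the last in 8 (Hist4h4 among them), and 3 further forms made up the remaining 5 genes.
Stem-loop of 41 genes: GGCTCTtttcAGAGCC
Stem-loop of 9 genes: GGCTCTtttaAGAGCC
Stem-loop of 8 genes: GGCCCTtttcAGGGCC
No such 16-base stem-loop was found in that stretch for Hist1h2an, Hist1h3g, Hist1h4a and Hist2h2be. By these letters, 63 of the 67 genes chosen by name carry the mark of the class.

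The histone genes were open in adipocyte nuclei more widely than genes at large. A gene was counted as open in a library if a peak came within 2 kb of its 5′ end. In all 22 libraries this held for 49 of 67 members (73.1%) against 41.5% of all 21938 protein-coding genes, and no member lacked a peak in every library, against 24.4% of all genes. In single libraries, 54 to 64 of the 67 members were open (80.6% to 95.5%) against 54.3% to 61.7% of all genes. Histone genes stand close together and neighbours often fall under the same peak, so that the 67 members had 45 distinct series of values and these counts do not describe 67 independent genes.

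How open a gene was depended on where it lay. Peak height is given as the maximum signal at the 5′ end divided by the median peak maximum of the library. It is taken from the whole peak that reaches the 5′ end, so a broad peak can carry the summit of a neighbour. At Hist1h3b the height was 0.44 in C 1 and 0.534 in C 2, and 2.64 and 3.69 in C 3 and CC_s 2, where the peak was 14321 and 16742 bases wide. The median height was 1.69 over the 67 members and 0.908 over all genes. The 29 Hist1 genes of the last part of the cluster (Hist1h4h to Hist1h1a) had a median height of 2.33 and 25 of them were open in all 22 libraries, whereas the 23 genes of its first part (Hist1h2bl to Hist1h2bj) had a median of 0.618, below that of all genes, and 12 were open throughout. The 10 Hist2 genes were open in all libraries, with a median of 2.46.

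Among linker histones, Hist1h1c (H1.2, a linker histone of somatic cells) was the most open by level, with heights from 2.72 to 4.96 (median 3.81). Hist1h1t, the linker histone of the testis, had heights from 2.31 to 5 (median 3.72). Its 5′ end shares a peak with that of the H4 gene Hist1h4c, with the same 22 heights and, in all but H 3, CCC 2 and HHC 3, the same level, so in the other 19 libraries its openness cannot be told apart from that of its neighbour. Hist1h1d (H1.3) stood lower at 1.03 to 2.43 (median 1.55), and Hist1h1b (H1.5), the only H1 gene of the first part, had a peak in 18 libraries and a median height of 0.352.

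Among the core histones, the duplicated H2A and H3 genes of the Hist2 cluster were among the highest. Hist2h2aa2 and Hist2h3c2 had heights of 2.69 to 4.95 (median 3.76), and their inverted copies Hist2h2aa1 and Hist2h3c1 of 2.32 to 4.95 (median 3.67). In 10 of the 22 libraries a single peak served all 4 genes, though in HHC 3 it ended just before the 5′ end of Hist2h3c1. The copies are not separate measurements there, and they also share sequence. Among the other Hist2 genes, Hist2h2ab, Hist2h2ac and Hist2h2be had a median of 2.43, Hist2h4 of 2.49 and Hist2h3b and Hist2h2bb of 2.14. By mean level, the highest H2B genes were Hist1h2bc (2.56 to 4.53, median 3.07) and Hist1h2bj (1.57 to 3.40, median 2.68), and the highest H4 genes Hist1h4c and Hist1h4h (2.15 to 4.30, median 3.05). Away from the large clusters, Hist4h4 had a median of 2.82 and Hist3h2a of 2.24, while its neighbour Hist3h2ba had a peak in 2 libraries.

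At the low end stood single genes of every core class. Hist1h4k had a peak in 7 libraries and Hist1h4j a median height of 0.811, Hist1h3i had a peak in 11 and Hist1h3b in 17, and Hist1h2ak had a peak in 12 libraries with a median of 0.404. Hist1h2aa and Hist1h2ba, the H2A and H2B genes of the male germ line, lie apart past the end of the others and had a peak in 1 library, of height 0.452.

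**Figure D1:**
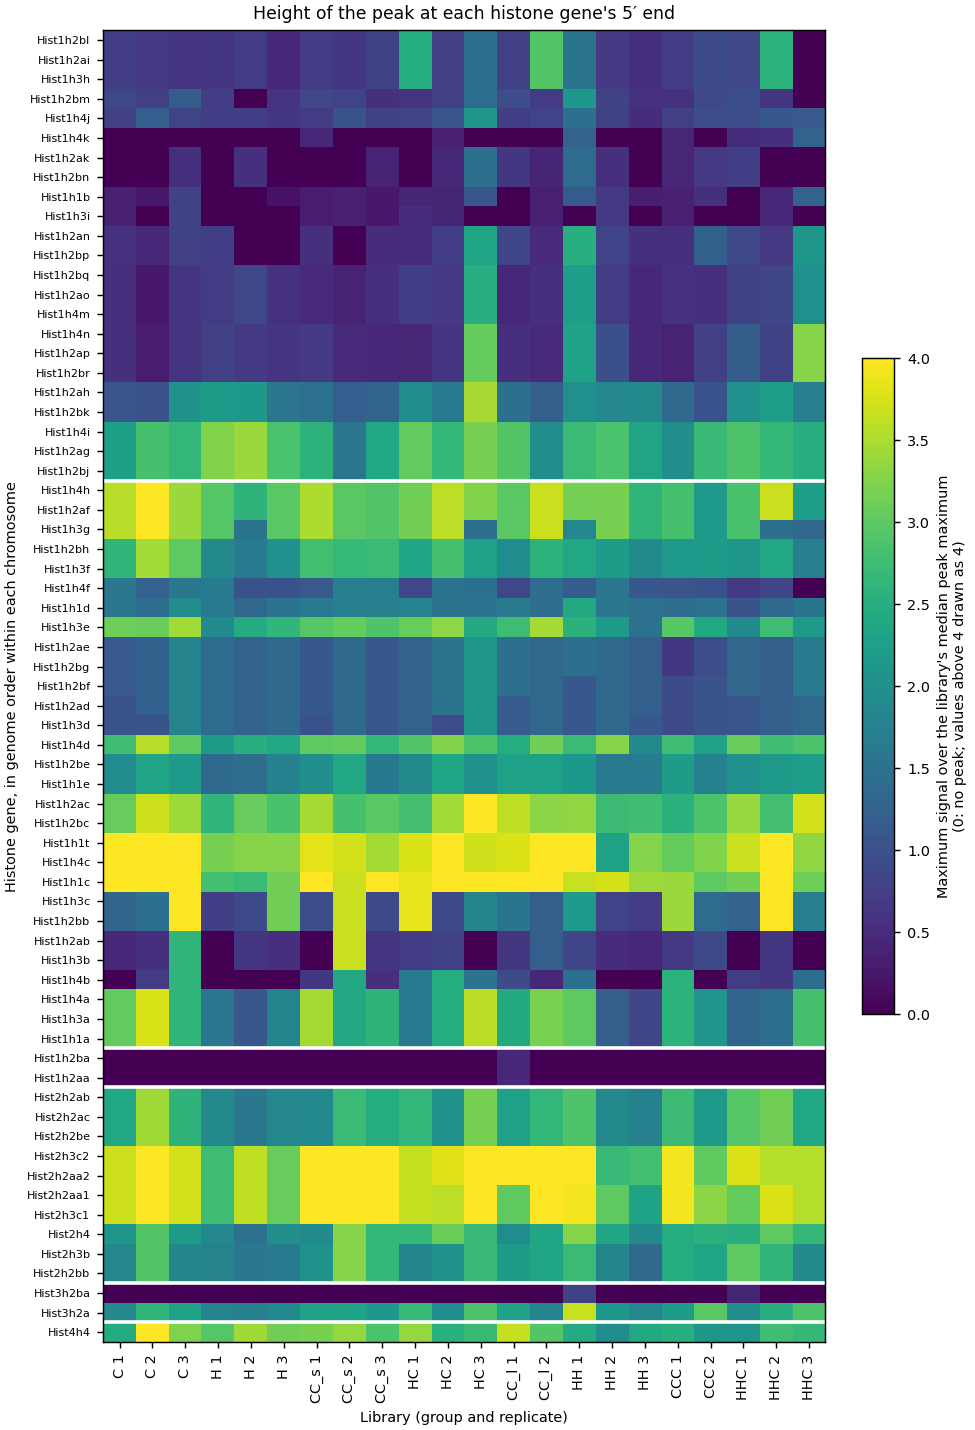
Height of the peak at each histone gene's 5′ end, 1 row a gene in genome order within each chromosome and 1 column a library, as maximum signal divided by the library's median peak maximum (0, no peak). The 23 Hist1 genes above the first white line have a median of 0.618 and the 29 genes under it 2.33, and HC 3, HH 1 and HHC 3 stand out in the upper block.

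The values of the first part carry a limit of sequence. When the 4 kb around each 5′ end was cut into 50-base words, 99% of those of Hist1h2br, 98.7% of Hist1h2bq, 97.2% of Hist1h2ap and 96.4% of Hist1h2ao were found again around other members or elsewhere in the cluster, and 81.3% and 78.6% of those of the H4 genes Hist1h4m and Hist1h4n. The medians were 16.4% for the 23 genes of the first part, 13.6% for the 31 chromosome 13 genes after it and 6.83% for the 13 members on other chromosomes, among which Hist2h3c2, Hist2h2aa2, Hist2h2aa1 and Hist2h3c1 had 47.6% each. Signal at such copies could be shared out between them by the aligner, so single values in the duplicated block and at these 4 Hist2 genes are uncertain. The 3 libraries with the lowest median peak maximum were also the highest in the duplicated block. Hist1h4n had heights of 3.06 in HC 3, 2.3 in HH 1 and 3.28 in HHC 3 against 0.315 to 1.18 in the other 19 libraries.

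Obesity was first read over the cluster as a whole, as the percent of a 2 Mb window of chromosome 13, from base 21700001 of GRCm38, that lay inside peaks. The window holds 43 histone genes, 23 in its first part and 20 in its last part (from base 23520001), and 11 Hist1 genes lie beyond its end. Between the groups of histone genes, 36 of the 43 other protein-coding genes are vomeronasal receptors (Vmn1r), which are genes of the olfactory system, and 26 of these had no peak in any library.

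More of the cluster was covered in obese than in lean mice after 12 weeks of HFD. The covered share was 8.16%, 7.64% and 11.2% in the C libraries and 13%, 11.8% and 11.9% in the H libraries. All H libraries were above all C libraries, by 3.22 percentage points on average (12.2% ± 0.662 against 9.01% ± 1.95, SD, n = 3 each, exact permutation test, 2-sided, p = 0.1, the smallest that 3 against 3 allows). A smaller share of nuclei with an open site and a less open site in every nucleus cannot be told apart in such bulk samples. Of 1190 stretches of 2 Mb across the genome, 12.3% had all H above all C in this way, and the difference at the cluster was larger than in 98.7% of them. In the 2 Mb on either side of the window the differences were -0.0879 (exact p = 0.9) and -0.617 (exact p = 0.6) percentage points. When the window was drawn instead from the first to the last Hist1 gene, the difference was 2.37 points with overlapping groups (exact p = 0.3).

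After 25 weeks of HFD the shares were 7.88%, 10.9% and 10.3% in HH and 7.17% and 9.02% in CC_l. The groups overlapped, with HH higher by 1.60 points (9.69% ± 1.61, n = 3, against 8.09% ± 1.3, n = 2, exact p = 0.3). After weight loss the groups overlapped. HC libraries had 11.1%, 9.63% and 6.57% and CC_s libraries 9.19%, 8.74% and 9.30%, a difference of 0.0366 points (exact p = 1), and HHC libraries had 6.98%, 8.54% and 8.53% against 8.86% and 6.92% in CCC, a difference of 0.132 points (exact p = 0.9). The HC libraries were the most spread out of the 8 groups (SD 2.32), with HC 3 the lowest. Without HC 3, one of the libraries set apart above, HC was 1.31 points higher, with both remaining libraries above all CC_s libraries (exact p = 0.1). Whether the H and HC differences differ from each other was not tested.

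Libraries differ in how much of the genome their peaks cover, so the cluster was also set against the whole genome of the same library, as the log2 ratio of the 2 shares. This relative coverage was 0.12, -0.07 and 0.25 in C and 0.75, 0.62 and 0.72 in H, a difference of 0.60 with no overlap (exact p = 0.1), where 25.5% of stretches had H above C in the same way. It was 0.70, 0.46 and 0.68 in HH and 0.27 and 0.26 in CC_l, a difference of 0.35, again with no overlap (exact p = 0.2), as in 25.1% of stretches. The weight-loss pairs overlapped, at 0.38 for HC against CC_s (exact p = 0.3) and 0.16 for HHC against CCC (exact p = 0.8), and the control pairs of different age gave -0.05 (CC_s against C) and -0.15 (CCC against CC_l). CCC and CC_l did not overlap either (exact p = 0.333, the smallest that 2 against 2 allows), and the CC_l libraries are those of the HH pair. A separation by diet on this scale was thus found in about 25% of the genome's stretches and is not particular to histone genes.

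**Figure D2:**
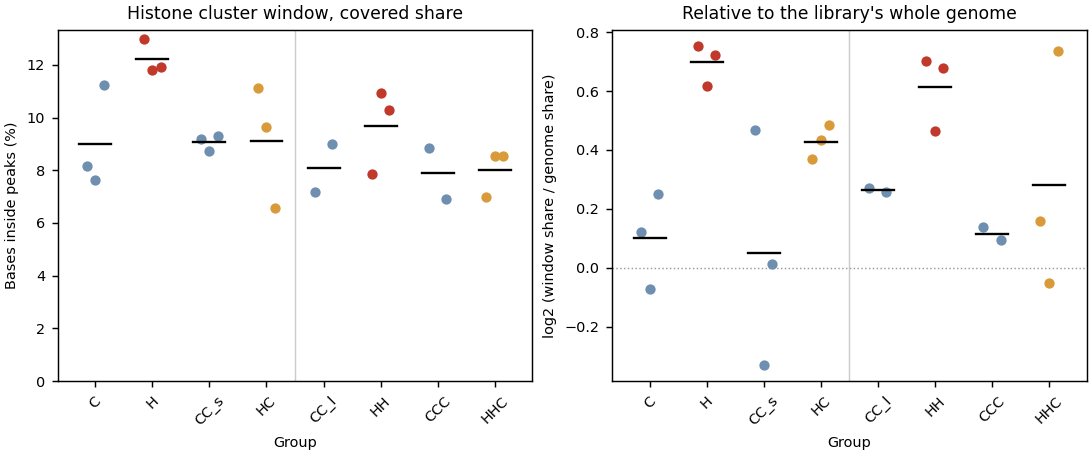
Percent of the chromosome 13 histone cluster inside peaks (left) and the log2 ratio of that share to the whole-genome share of the same library (right), 1 point a library and a bar at each group's mean. H lies at 11.8% to 13% against 7.64% to 11.2% in C, while HC and HHC overlap their controls.

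Both HFD durations were then read together, with group labels permuted within each duration (200 relabellings), a test added after the pairs had been seen. Obese libraries covered 2.41 points more of the cluster than lean ones (exact p = 0.035), and the relative coverage was 0.47 higher (exact p = 0.01). In the same direction, 10.1% of stretches had an exact p under 0.05 for the covered share and 25.2% for the relative coverage. The call on the covered share was fragile. Leaving out any H library, C 1, C 2, HH 2, HH 3 or CC_l 1 gave 1.95 to 2.52 points with p between 0.06 and 0.125. The weight-loss groups read together differed by 0.0843 points (exact p = 0.895) and by 0.27 on the relative scale (exact p = 0.175).

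Coverage near the histone promoters and in the rest of the window was then read apart. Within 2 kb of the members' 5′ ends, 60.1%, 57.7% and 80.4% of bases were inside peaks in C and 64.6%, 66.8% and 64.6% in H, a difference of -0.682 points (exact p = 1). The groups overlapped through C 3, which was above every H library, while C 1 and C 2 were below every H library, and without C 3 the difference was 6.47 points. In HH the difference was 0.149 points (exact p = 1), and it ran from -9.9 to 10.2 points without either CC_l library. In the rest of the window the share was 9.31% in H and 5.88% in C, higher by 3.43 points with no overlap (exact p = 0.1), and by 2.93 to 4.22 points with 1 library left out. It was 6.95% in HH and 5.27% in CC_l, with overlapping groups (1.68 points higher, exact p = 0.3), and 2.55 points higher with both durations together (exact p = 0.015). Histone promoters held 27.9% of the covered bases in H against 38.4% in C and 32.2% in HH against 38.1% in CC_l, with no overlap in either pair (exact p = 0.1 for both). How often other stretches of the genome differ in these ways was not worked out, so the values cannot be called particular to the cluster.

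By position, the added bases of the H libraries lay in the first part and the middle of the window. In the first part the covered share was 18.8%, 17.4% and 25.7% in C and 29.4%, 28% and 27.1% in H (7.59 points higher, exact p = 0.1), and 13.3% and 19.4% in CC_l and 19.6%, 26.5% and 24.7% in HH (7.21 points higher, exact p = 0.2, no overlap, and 4.19 points without CC_l 1). HC and HHC differed from their controls by 1.21 and -0.178 points there. The HC value was 4.44 points without HC 3 and -1.72 points without HC 1, and the HHC value lay between -2.52 and 2.01 points with 1 library left out. The middle part, with the vomeronasal receptor genes and no histone gene, was covered to 3.31%, 2.50% and 4.82% in C and 6.59%, 5.23% and 5.63% in H (2.27 points higher, exact p = 0.1), and HH and CC_l overlapped there (4.44% against 3.60%, 0.836 points higher, exact p = 0.3). In the last part, where the more open histone genes lie, the groups overlapped, with differences of 2.14 points for H (exact p = 0.4) and -3.44 points for HH (exact p = 0.5). The window held 57, 57 and 64 peaks in H against 45, 45 and 49 in C, and 66, 59 and 68 in HH against 54 and 51 in CC_l, and no obese library overlapped its lean controls. For the parts of the window and the number of peaks, the share of other stretches that separate likewise was not worked out. The median width of the peaks in the window was 3478 bases in H and 3510 in C (exact p = 1).

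**Figure D3:**
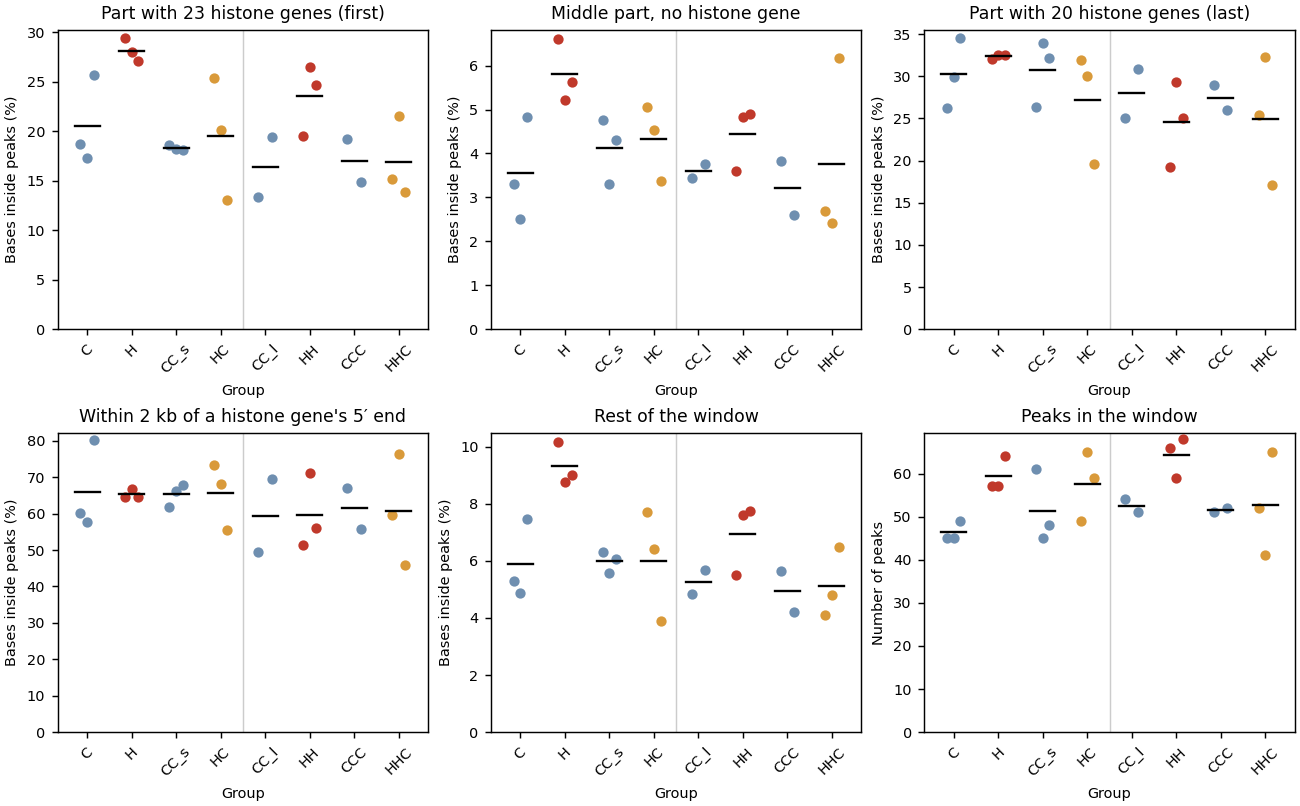
Percent of bases inside peaks in the 3 parts of the window, within 2 kb of histone gene 5′ ends and in the rest of the window, and the number of peaks in the window, 1 point a library and a bar at each group's mean. The first part lies at 27.1% to 29.4% in H against 17.4% to 25.7% in C, whereas near 5′ ends H lies at 64.6% to 66.8%, above C 1 and C 2 (60.1% and 57.7%) and below C 3 (80.4%).

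Single histone genes were compared by level, the log2 total signal of the peaks within 2 kb of the 5′ end after each library had been mapped by rank to 1 common scale, whose floor of 14.36 stands for no or too little signal. A gene was called if limma gave an unadjusted p under 0.01 and a log2 difference beyond 1, the cut-off used for promoters in the study, and the Benjamini-Hochberg adjusted p over all promoters tested is given beside it. Promoters at the floor in most libraries were left out before the test, so the members tested number 54 to 62 of 67. A gene that enters only through the group where it is high had to differ, and counts over the genes tested are not counts over all members.

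In H against C, 7 of the 56 histone genes tested were called, all higher. Across the genome 3.64% of 12172 promoters were called in either direction (1.94% higher). No histone gene passed the adjusted limma threshold, which 1.82% of all promoters passed, and 13 of the 56 had an unadjusted p under 0.05, as did 20.5% of all promoters tested. The 7 genes lie under only 3 sets of peaks, so 3 distinct signals were called. Of the 3, that of Hist1h4n, Hist1h2ap and Hist1h2br passed the filter only through H and had to differ. All 7 are core histone genes, with 3 H4 genes, 2 H2A and 2 H2B, and no H1 or H3 gene.

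The largest difference lay at the end of the first part, where the H4 gene Hist1h4i (chr13:22040636-22041362, minus strand) adjoins the head-to-head pair Hist1h2ag and Hist1h2bj printed above. The level was 16.52, 16.33 and 16.60 in C and 18.55, 18.65 and 17.49 in H, a difference of 1.75 ± 0.33 (SE, limma adjusted p = 0.0609). All 3 H libraries were above all C libraries, and H 3 was the lowest of them. The peaks differed in width. They covered 17916, 17737 and 6880 bases in H and 4543, 4223 and 5331 in C, and in the other 16 libraries between 3629 and 6578 bases, so that the broad form was found in H 1 and H 2. In these 2 libraries the peak began near Hist1h4i and ran on past Hist1h2bj to bases 22057224 and 22057800, against 22044574 to 22045382 in C.

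The height of this peak moved less. Heights over the library median were 3.24, 3.40 and 2.86 in H and 2.28, 2.84 and 2.65 in C. Taken from the maximum signal, the difference in level was 0.68, short of the cut-off on size, and taken from the part of each peak's total signal that falls within 2 kb of the 5′ end (in proportion to the overlap, as if coverage were even along the peak) it was 0.28 to 0.53 for the 3 genes and short of both cut-offs. The call was lost under those 2 alternatives and held in the other 14 tried, and without H 3 the difference was 2.12 and passed the adjusted threshold as well. In HH the level was 17.79, 17.28 and 17.53 against 16.81 and 16.31 in CC_l, a difference of 0.98 ± 0.30 with no overlap (adjusted p = 0.55), which did not reach the cut-off. After weight loss the differences were 1.01 ± 0.59 (HC, adjusted p = 0.78) and 0.93 ± 0.52 (HHC, adjusted p = 0.925), and the differences of the means were 0.41 without HC 3 and 0.51 without HHC 3.

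The next signal was Hist4h4 (chr6:136801553-136804415, minus strand), an H4 gene that lies alone, beside H2afj, which encodes the poly(A)-tailed variant H2A.J. Its level was 16.22, 17.10 and 17.15 in C and 17.95, 18.21 and 18.10 in H, a difference of 1.27 ± 0.28 (adjusted p = 0.0856) with no overlap. The call was lost in 7 of the 16 alternatives tried, among them 4 of the 6 fits with 1 library left out (0.97 to 1.43). Here too the peak was broad in H, at 14225, 14717 and 16354 bases, but C 3 with 13997 bases was nearly as broad, against 7794 in C 2 and 2524 in C 1. A single peak spanned both genes in all H libraries and in C 3, while C 2 had 2 separate peaks, the wider of 4394 bases. H2afj was called as well (1.62 ± 0.31, adjusted p = 0.0615). When only the part of the signal within 2 kb of the 5′ end of Hist4h4 was taken, in proportion to overlap, the difference was -0.01, and HH differed from CC_l by 0.19 on that scale. That scale spreads each peak's signal evenly over its width and so lowers broad peaks. The lists hold no coverage along a peak, so the signal close to the 5′ end of Hist4h4 was not measured.

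The remaining called genes, the H4 gene Hist1h4n (chr13:21831767-21832196) and the pair Hist1h2ap and Hist1h2br, belong to the duplicated block. Their level was 14.36, 14.36 and 15.11 in C and 15.58, 15.71 and 15.53 in H, a difference of 1.00 ± 0.23 (adjusted p = 0.0946). C 1 and C 2 were at the floor, so these genes passed the filter only through H and had to differ. The call is therefore not read as a result, and the size of the difference depends on the floor. The call is at the edge of the cut-off and was lost when C 1, C 2 or any H library was left out (0.88 to 1.04), while without C 3 it was 1.25 and passed the adjusted threshold as well. Over all alternatives tried, it was lost in 11 and held in 4 for Hist1h2ap and Hist1h2br. For Hist1h4n it was lost in 10 and held in 5. The near-identical genes Hist1h2bq, Hist1h2ao and Hist1h4m differed by 0.77 ± 0.33 (adjusted p = 0.256).

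**Figure D4:**
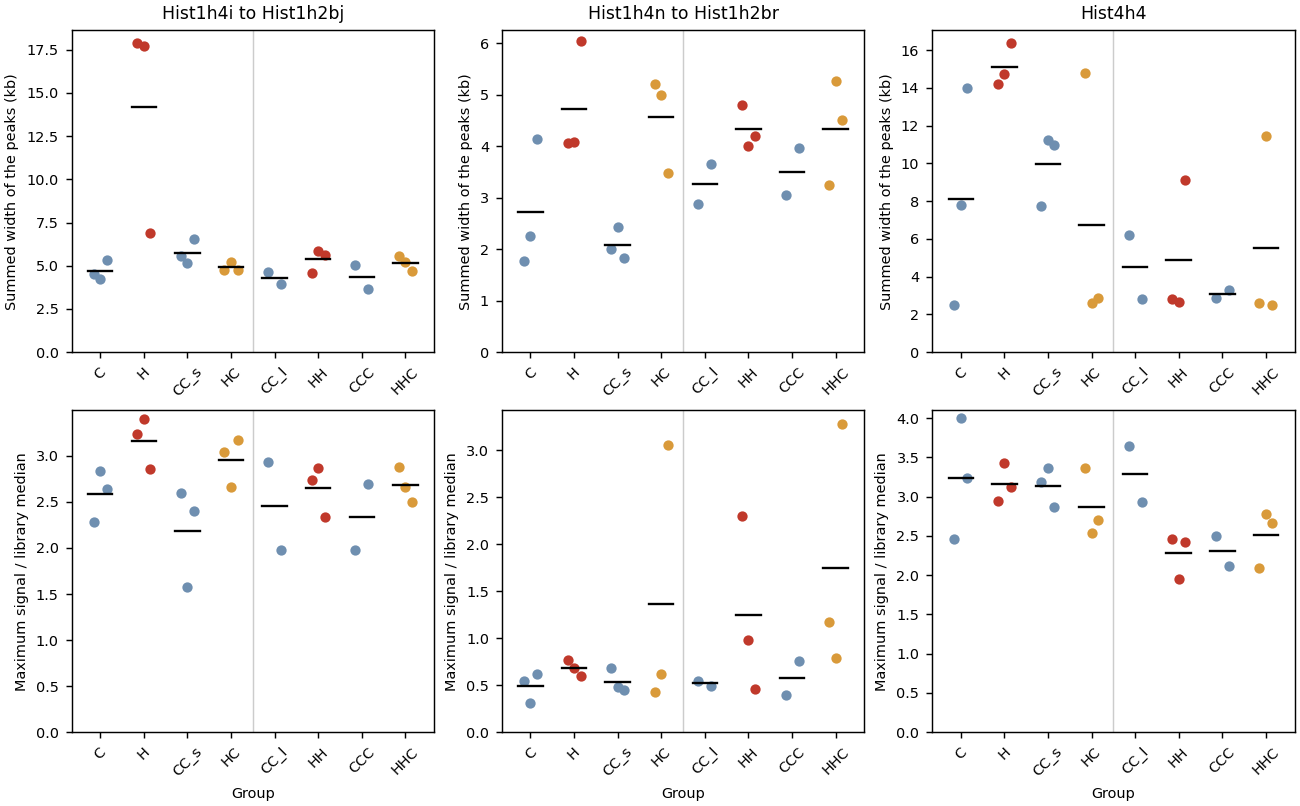
Summed width of the peaks in kb (top) and height as maximum signal over the library median (bottom) at the 3 loci called in H against C, 1 point a library and a bar at each group's mean. At Hist1h4i to Hist1h2bj, H 1 and H 2 reach 17916 and 17737 bases with heights of 3.24 and 3.40 against 2.28 to 2.84 in C.

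At most histone genes the levels of H and C were close together. At Hist1h1c the level was 17.45, 17.41 and 17.52 in C and 17.11, 17.12 and 17.85 in H (difference -0.10 ± 0.24, adjusted p = 0.844), and at Hist2h3c2 it was 18.18, 18.00 and 17.66 in C and 18.34, 18.64 and 17.48 in H (0.21 ± 0.34, adjusted p = 0.767). The lowest p among the lower differences was at the far end of the cluster, at Hist1h4a, Hist1h3a and Hist1h1a, which share their peaks. These had 17.25, 17.04 and 17.17 in C and 16.54, 16.35 and 16.78 in H, a difference of -0.59 ± 0.18 (adjusted p = 0.142) that had no overlap but did not reach the cut-off. In HH, HH 2 and HH 3 (16.14 and 16.28) were below CC_l (17.42 and 17.11) and HH 1 (17.68) was above, and without HH 1, one of the 3 libraries set apart above, the difference was -1.05 ± 0.24 and passed the cut-off (adjusted p = 0.281). This trio was singled out after its values were seen.

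In HH against CC_l, 0 of the 62 histone genes tested were called, where 1.69% of 12512 promoters were (0.0959% by adjusted p), and 5 had an unadjusted p under 0.05, against 7.26% of all promoters. The smallest p was at Hist1h2ah and Hist1h2bk, a pair of the first part. Their level was 15.71, 15.52 and 15.90 in HH and 14.98 and 14.62 in CC_l (0.91 ± 0.22, adjusted p = 0.417), with no overlap and a size just under the cut-off. The same pair differed by 0.80 ± 0.27 in H, 1.15 ± 0.64 in HC and 0.62 ± 0.24 in HHC, each against its own controls. Without HC 3 the HC difference of the means was 0.37, and without C 2 the H difference was 0.52.

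After weight loss, 0 of the 61 histone genes tested were called in HC against CC_s, where 1.21% of 12177 promoters were (0.156% by adjusted p), and 6 had an unadjusted p under 0.05, against 5.87% of all promoters. The smallest p was at Hist1h2bl, Hist1h2ai and Hist1h3h, which share a peak. The level was 17.19, 14.96 and 16.33 in HC and 14.78, 14.82 and 15.01 in CC_s (1.29 ± 0.52, adjusted p = 0.78). A peak of 9 to 10 kb stood there in HC 1 (9389 bases), CC_l 2 (9837) and HHC 2 (9025), which belong to 3 different groups, and HHC 3 had no peak there. With 1 library left out, the difference ran from 0.77 without HC 1 to 1.89 ± 0.35 without HC 2, the one of these 6 fits that passes the cut-off (adjusted p = 0.406). In the duplicated block, Hist1h4n, Hist1h2ap and Hist1h2br had levels of 15.15, 15.32 and 18.02 in HC and 14.60, 14.36 and 14.36 in CC_s, a difference of 1.73 ± 0.71 (adjusted p = 0.78). HC 3, one of the 3 libraries set apart above, was the highest, and without it the difference of the means was 0.80.

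In HHC against CCC, 2 of the 60 histone genes tested were called, both higher, where 0.831% of 12640 promoters were called in either direction, 0.15% higher, and 0.0% by adjusted p. An unadjusted p under 0.05 was found for 4 of the 60, against 4.16% of all promoters. They are the head-to-head pair Hist1h2ae and Hist1h2bg of the last part. Hist1h2bg had levels of 16.31, 16.21 and 16.62 in HHC and 14.77 and 15.31 in CCC (1.34 ± 0.30), and Hist1h2ae 16.31, 16.21 and 15.54 against 14.77 and 14.45 (1.41 ± 0.33), with an adjusted p of 0.859 for both. The CCC libraries were low here also beside CC_l. Hist1h2ae differed by -1.34 ± 0.34 and Hist1h2bg by -0.91 ± 0.37 between CCC and CC_l, and both pairs use the same CCC libraries. For each gene the call was lost in 10 of the 15 alternatives tried. These included the maximum signal, peaks that cover the 5′ end, the strongest 20000 peaks and no filter on low levels, and 4 of the 5 fits with 1 library left out, so that it held there only without HHC 3. With the signal within 2 kb of the 5′ end, 2 genes of the duplicated block, Hist1h2bq (1.79) and Hist1h2ao (1.90), were called in their place. Without HHC 3 their mean differences on that scale were 1.38 and 1.5.

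**Figure D5:**
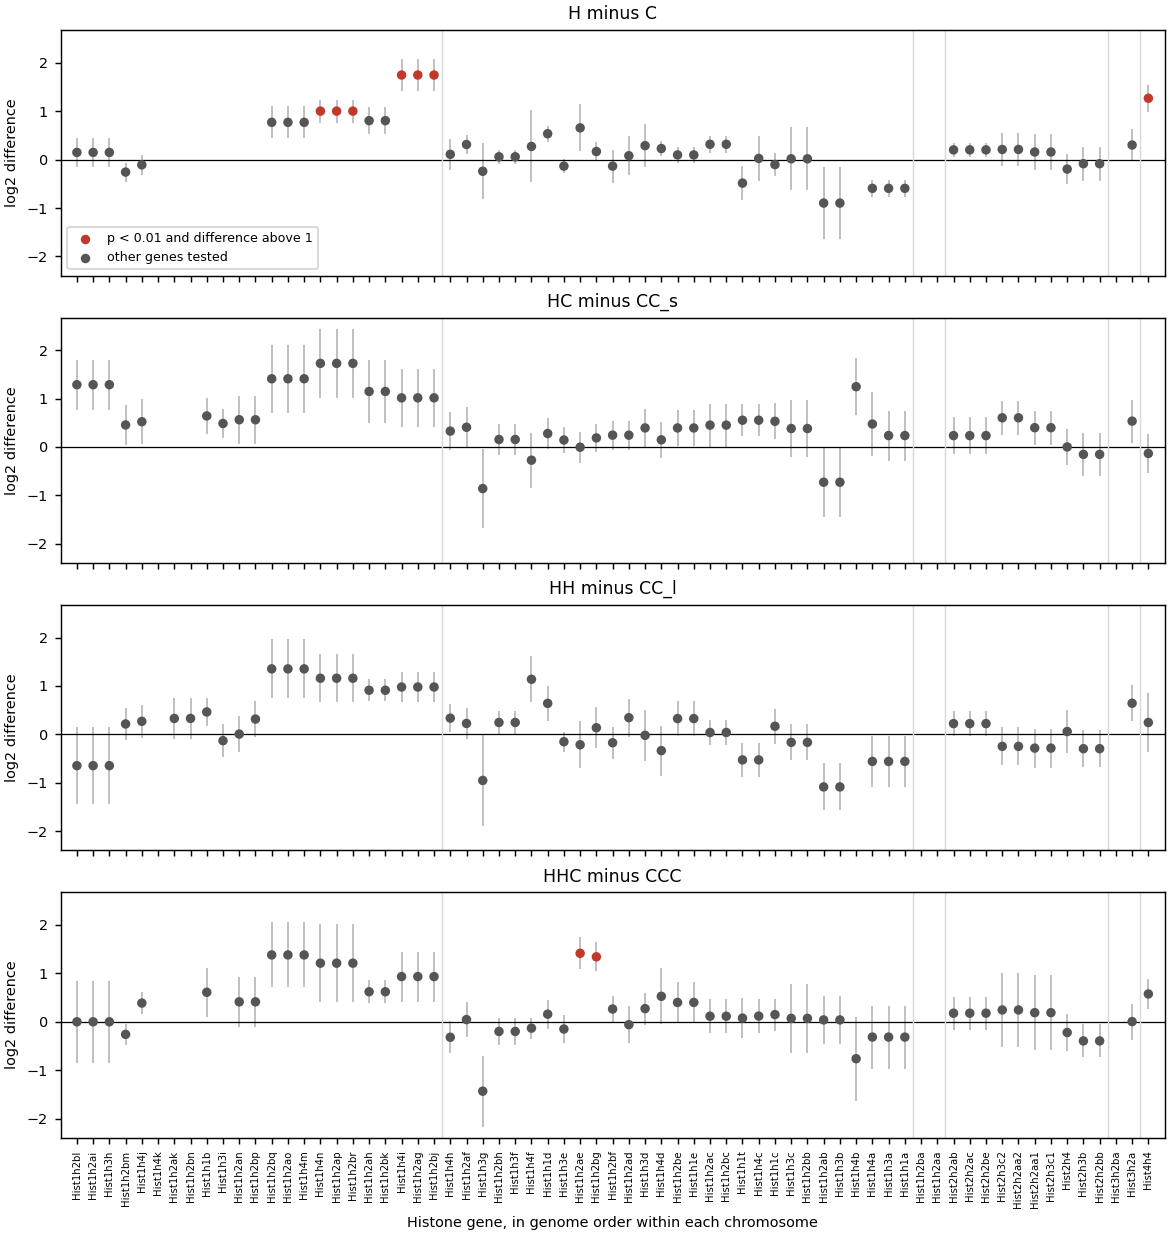
Difference in level (log2, point) with its standard error (line) at each histone gene tested in the 4 diet pairs, in genome order within each chromosome, with grey lines between clusters. Red marks genes with p under 0.01 and a difference beyond 1, which number 7, 0, 0 and 2 from top to bottom, and neighbours with equal values share their peaks.

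Across the first part of the cluster, the median difference in level was positive in each of the 4 pairs, though in H this depended on how the genes were counted. The median difference over the genes tested was 0.79 in H (14 of 16 positive), 1.15 in HC (20 of 20), 0.69 in HH (18 of 22) and 0.62 in HHC (15 of 19), against 0.06, 0.28, -0.09 and 0.07 in the last part and 0.03, 0.07, 0.01 and 0.02 over all promoters tested. With no filter, so that all 23 genes enter, the medians were 0.15, 1.01, 0.46 and 0.61, with 15, 22, 18 and 19 positive. Taken once for each of their 13 distinct sets of peaks, the medians were 0 in H (6 sets higher and 6 lower), 0.56 in HC (12 higher and 0 lower), 0.32 in HH (10 and 2) and 0.41 in HHC (11 and 2). The control pairs gave medians of -0.16 (CC_s against C) and -0.11 (CCC against CC_l). These genes share peaks and sequence, and the values are a description with no test.

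The 3 libraries that stood apart carried part of this. Without HC 3 the median in HC was 0.47 (16 of 20 positive), without HH 1 it was 0.49 in HH (12 of 22 positive), and without HHC 3 it was 0.50 in HHC (15 of 18 positive). Taken once for each of the 13 sets of peaks, the medians fell to 0.29 in HC without HC 3 (8 higher and 4 lower), -0.01 in HH without HH 1 (5 and 7) and 0.13 in HHC without HHC 3 (9 and 3), and the HHC median was 0.24 without CCC 1. No library of H or C was among the 3. In the control pairs no histone gene was called, with 0 of 54 in CC_s against C (0.454% of 12109 promoters) and 0 of 58 in CCC against CC_l (1.29% of 12219), and 2 and 1 had an unadjusted limma p under 0.05, against 3.69% and 7.92% of all promoters.

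The factors that act on histone genes and messages were open throughout. All 12 genes for histone gene expression and message processing had peaks in all 22 libraries, among them Npat, the activator of the clusters (height 4.14), Casp8ap2, a part of the histone locus body (4.45), and Slbp, which binds the stem-loop (3.64). Of the 12, 1 was called in H, Lsm10, a protein of the U7 particle that helps cut histone messages. Its level was 15.69, 15.56 and 15.23 in H and 18.52, 18.28 and 18.39 in C, a difference of -2.90 ± 0.18 (adjusted p = 0.00256), with no overlap. It was not called in the other 3 pairs, where the differences were -1.26 (HC), -0.55 (HH) and -2.09 (HHC).

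Of the poly(A)-tailed histone genes, 10 of 11 could be tested in each pair. H2afj was the only one called in H, and none was called in HC or HH. In HHC, H1fx, a linker histone variant, passed the cut-off, but it was at the floor in all 3 HHC libraries and entered the fit only through CCC (15.68 and 16.25), so it had to differ and nothing is read from it. Genes of proliferating cells (12, such as Mki67, Top2a and Pcna), with 11 or 12 tested, gave 0 calls in each of the 4 limma fits, with 1 gene at an unadjusted p under 0.05 in H and 0 in the others. Among the non-histone neighbours in the window, Btn1a1, a butyrophilin of the milk fat globule, was called in H (15.93, 16.21 and 16 against 14.36, 14.36 and 15.25, 1.39 ± 0.27, adjusted p = 0.0654) and in HH (15.81, 15.72 and 16.30 against 14.92 and 14.36, 1.31 ± 0.29, adjusted p = 0.336), with 5 neighbours tested in each. It was at the floor in C 1, C 2 and CC_l 2 and passed the filter only through H and HH, so nothing is read from these calls.

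Markers moved with the H and C groups as well. The summed height over 8 adipocyte genes was 25.6 to 32.3 in H and 37.9 to 58.3 in C, that over 8 macrophage genes 2.19 to 5.57 against 6.51 to 11.2 and that over 8 lymphocyte genes 0 to 1.11 against 1.23 to 6.75, while the endothelial and stromal sums overlapped (0.844 to 2.36 against 1.49 to 2.29). Summed heights were lower in H also for genes that mark no cell type, at 28.5 to 29.6 against 37.0 to 45.7 over the 12 histone expression factors and 22.3 to 26.1 against 30.1 to 39.6 over the 12 genes of proliferating cells. Over the adipocyte genes they were 18.9 to 33.2 in HH against 41.2 to 49.0 in CC_l. By level, 6 of the 8 adipocyte genes had a positive difference in H, with Fabp4 called (1.14), and values of -1.32 at Pparg and -1.65 at Cfd. Fabp4 was also called in HC (1.53 ± 0.43, adjusted p = 0.724) and Cfd in HH (-2.92 ± 0.24, adjusted p = 0.0287). Among the macrophage genes, 3 could be tested in H and Cd14 was called, with levels of 14.36, 14.36 and 14.51 in H and 18.14, 18.33 and 17.70 in C (-3.65 ± 0.20, adjusted p = 0.0015). Among the lymphocyte genes, Cd79a was called in HHC (-2.59 ± 0.30, adjusted p = 0.258). Cd14 in H and Cd79a in HHC were at or near the floor and passed the filter only through the lean group, so nothing is read from these calls. The part of the marker shifts, and of the lower peak maxima of H, in the histone gene differences was not tested.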

How the data were processed

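ATAC-seq of adipocyte nuclei was analysed in 22 libraries of 8 groups. Per the study's methods and the submitters' processing notes, reads were trimmed (Trim Galore 0.6.6), aligned (Bowtie2 2.4.4), sorted (SAMtools 1.13) and turned into coverage (bedtools 2.30) by the authors, who called peaks on every library separately with SEACR 1.3 (stringent mode, threshold 0.01). The deposited values are unnormalised signal: summed and highest coverage per peak. How reads aligning to several places were treated is not given in the sources used here. Replicates are separate samples by their labels, and p-values measure the spread between them.

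From these lists, the 1 mitochondrial peak a library was left aside, and the others were matched to GENCODE vM21 5′ ends of protein-coding genes (2 kb to each side). Their summed total signal was ranked in each library, and the top 11913 ranks, the number that the list with fewest open promoters could fill, were given the mean log2 value of that rank over the libraries, with a floor of 14.36 below. limma 3.58.1 (R 4.3.3, trend) was fitted for every pair on promoters that exceeded the floor in a number of libraries no lower than the size of the smaller group. Single values were tested by exact permutation over libraries (2-sided, smallest p 0.1 for 3 against 3 and 3 against 2). Python 3.11.15, numpy 2.4.6 and pandas 2.3.3 were used. The fits were also run on simulated data. Named genes were, in each pair, up to 6 called members (ties kept) or the 2 of smallest p, the 2 highest and 2 lowest of each class by mean level, all members outside chromosome 13, the germline histones, and genes behind counts of 5 or fewer. Groups of 2 libraries and unknown depth limit precision. The members, gene lists and tests were chosen with earlier results of these data known. No column lacked a sample (0). Replicates of 1 group shared at most 2 identical peaks.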

Additional observations from a re-analysis of the deposited data

How the results depend on the processing

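The covered share of the cluster was higher in H than in C under each alternative tried (2.53 to 4.33 points with 1 library left out), and so was the relative coverage (0.51 to 0.67). With 1 library left out, relative coverage stayed positive for HC (0.19 to 0.59) and HH (0.31 to 0.42). HC against CC_s was -0.183 points with equal numbers of the strongest peaks, -0.657 over the span of all Hist1 genes and -3.64 in the last part, and -0.973 to 1.31 with 1 library left out. HH against CC_l was -3.44 points in the last part and 0.678 to 2.52 with 1 library left out. HHC against CCC was -0.456 over the span, -0.178 in the first part, -2.53 in the last part and -0.837 to 1.1 with 1 library left out, and its relative coverage was -0.0629 to 0.33. CC_s against C was -0.141 over the span, -2.29 in the first part and -0.627 to 1.18 with 1 library left out (relative coverage -0.26 to 0.14), and CCC against CC_l was 0.677 in the first part and -1.18 to 0.763. Both durations together, the split of the window into parts, counts over distinct sets of peaks, and differences of group means with 1 library left out, were chosen after seeing the data. The first of these gave 1.64 points over the span (exact p = 0.115), -0.651 in the last part and 1.95 to 2.97 with 1 library left out.

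Of the 7 histone genes called in H, 0 were called with the maximum signal, 1 with the signal within the window, 4 with peaks that cover the 5′ end, 4 with the strongest 20000 peaks, 3 with median scaling, 4 in a fit over all groups of the duration and 3 to 7 with 1 library left out. The difference at Hist4h4 turned to -0.00598 within the window. In HC, 2 were called with the signal within the window, Hist1h4n and Hist1h2ap of the duplicated block (1.80 and 1.70, with mean differences of 1.15 and 1.07 without HC 3), and 0 to 3 with 1 library left out. In HH, 0 to 3 were called with 1 library left out. Of the 2 called in HHC, 0 were called with the maximum signal, with peaks that cover the 5′ end, with the strongest 20000 peaks, with no filter or with the signal within the window, where 2 genes of the duplicated block were called in their place, 1 in the fit over all groups and 0 to 2 with 1 library left out (both held only without HHC 3). For CCC against CC_l it was 0 to 5. With 1 library of a group of 2 left out, the lone library was taken to vary like the other group. The cause was not tested.

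Replicate numbers were not taken to pair the samples: no label ties them, and same-numbered libraries did not deviate together in the pairs with 3 numbers (r across promoters -0.0493 to 0.0568 for H with C, -0.296 to 0.0264 for HC with CC_s, 0.112 to 0.182 for HH with CC_l and -0.219 to 0.0905 for HHC with CCC). With the replicate number as a block, 4 histone genes were called in H (Hist1h4i, Hist1h2ag, Hist1h2bj and Hist4h4), 0 in HC, 0 in HH and 1 in HHC (Hist1h2ae). Peak width and unknown depth limit all of these values, and groups of 2 or 3 libraries cannot reach an exact p under 0.1 in 1 pair.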
